A study of Mus musculus with 6 samples.

Results

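The genes described here are 8 genes of primordial germ cell (PGC) specification, Prdm1, Prdm14, Tfap2c, Nanos3, Dnd1, Kit, Ifitm1 and Ifitm3, taken by their GENCODE symbols from 53390 genes with values. PGCs are the precursors of sperm and eggs. In the mouse they arise in the epiblast when bone morphogenetic proteins (BMPs) and Wnt signals from neighbouring tissues switch on the transcription factors Prdm1 (also called Blimp1), Prdm14 and Tfap2c (AP2γ), which silence somatic genes and keep or restore pluripotency genes. The RNA-binding proteins Nanos3 and Dnd1 and the receptor Kit then protect and guide the cells, and the membrane proteins Ifitm1 and Ifitm3 mark them from an early stage. Several of these genes are also transcribed in embryonic stem (ES) cells, where Prdm14 and Tfap2c support naive pluripotency.

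RNA-seq of stranded libraries made after poly(A) selection measured expression in TKO mouse ES cells (mESCs), a male 129S4/SvJae line derived from J1 in which the DNA methyltransferase genes Dnmt1, Dnmt3a and Dnmt3b have been inactivated. Both groups carry this triple knockout and were grown without feeders. TKO-serum cells (3 libraries) were kept in 15% fetal calf serum with leukaemia inhibitory factor (LIF) at 500 U/ml. TKO-2i cells (3 libraries) grew in N2B27 medium, which holds LIF at 1000 U/ml and, in place of serum, CHIR99021 (3 µM), which inhibits the kinase GSK3, together with PD0325901 (1 µM), which inhibits MEK. The labels call the replicates biological. Values come from 1 line and from ES cells, not from PGCs, and no group without the knockout was used, so what follows describes the medium in TKO cells alone. Serum, LIF dose and both inhibitors change together and cannot be told apart. Each TKO-2i library held 43896549 to 46228700 estimated read counts, and each TKO-serum library 38274042 to 51932739.

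The inactivated genes were looked at first. Dnmt1 had 29.1, 34.6 and 29.3 TPM (transcript abundance corrected for length and scaled to a fixed sum per library) in TKO-2i and 25.7, 28.6 and 27.9 TPM in TKO-serum. Dnmt3a had 4.30, 5.19 and 4.54 TPM in TKO-2i and 21.3, 23.0 and 22.7 TPM in TKO-serum. Dnmt3b had 6.71, 9.53 and 8.49 TPM in TKO-2i and 18.8, 20.9 and 20.7 TPM in TKO-serum. RNA of all 3 loci was thus present in every library. Where the deletions lie within the transcripts is not given in the sources used here, so these levels check little of the genotype. The ES cell label was met by high levels of Pou5f1 (1017 ± 37.7 TPM in TKO-2i and 1250 ± 2.28 TPM in TKO-serum; mean ± SD, n = 3 in each, here and below), Nanog, Zfp42, Sox2 and Esrrb.

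In the 2i medium, 4 of the 8 genes (Prdm14, Tfap2c, Nanos3 and Kit) were higher and 3 (Prdm1, Dnd1 and Ifitm1) were lower than in serum, so the genes did not move as a group. The quasi-likelihood F-test of edgeR was run on all 18177 genes that passed a filter on low counts, and a gene was called where its p-value, adjusted over these by the Benjamini-Hochberg method, was under 0.05. Ifitm3 was not called. All 8 genes passed that filter. The 2 media differed widely, since 62.5% of all genes tested were called, 31.9% as higher and 30.6% as lower in TKO-2i. With most genes called, a call is nothing particular to these 8. Values of CPM (counts scaled to library size, not corrected for gene length) did not overlap between the conditions for 7 of the 8 genes, against 67.5% of all genes tested. The median log2 fold change (TKO-2i over TKO-serum) of the 8 genes was 0.18, beside 0.01 for all genes tested. This is the midpoint between Ifitm3 (-0.15) and Tfap2c (0.51), in a range from -2.50 (Prdm1) to 2.13 (Kit), so it describes no single gene. The median became 0.088 without TKO-2i replicate 1. With limma on log2(TPM + 1) it was 0.048, and the median of all genes tested was -0.06. In bulk RNA, fewer cells of a type and less RNA per cell cannot be told apart. An exact permutation test of 3 against 3 libraries cannot go below p = 0.1 and was not used.

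By mean TPM, only Nanos3 changed its place in the order of the genes between the media, and the others kept theirs relative to each other. In TKO-2i, Ifitm1 had the highest mean level (312 ± 10.3 TPM), followed by Ifitm3, Kit, Tfap2c, Prdm14, Nanos3, Dnd1 and, with the lowest level, Prdm1 (1.61 ± 0.0763 TPM). Only the neighbours Tfap2c and Prdm14 overlapped there in their library values. In TKO-serum, Ifitm1 (729 ± 29.8 TPM) and Ifitm3 again led, and Nanos3 (5.40 ± 0.136 TPM) came last. Kit and Tfap2c overlapped in TKO-serum, as did Prdm14 with Dnd1 and Dnd1 with Prdm1.

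**Figure D1:**
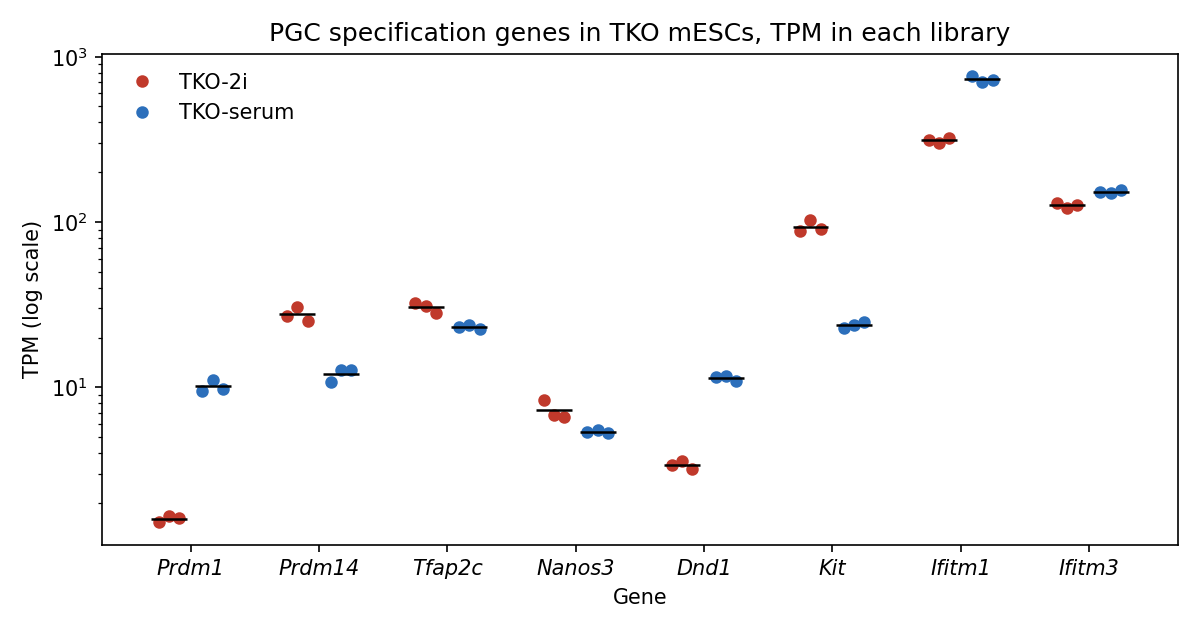
TPM (log axis) of the 8 PGC specification genes in each of 3 TKO-2i libraries (red) and 3 TKO-serum libraries (blue), with the mean of each group as a black line. Kit lies between 88.5 and 102 TPM in TKO-2i and between 22.9 and 24.9 TPM in TKO-serum, while Prdm1 lies between 1.53 and 1.68 TPM in TKO-2i and between 9.50 and 11.1 TPM in TKO-serum.

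The 3 transcription factors of the PGC programme split between the media. Prdm1, a PR domain zinc-finger repressor that silences somatic genes in nascent PGCs (ENSMUSG00000038151, minus strand of GRCm38 chr10:44437177-44528501), had 247, 235 and 244 estimated counts in TKO-2i and 1172, 1772 and 1368 in TKO-serum. Its level was 1.53, 1.68 and 1.62 TPM in TKO-2i and 9.50, 11.1 and 9.81 TPM in TKO-serum. Every TKO-2i library lay far below every TKO-serum library. The log2 fold change was -2.50 ± 0.07 (standard error, SE; adjusted p = 6.31e-08 in edgeR), which is 5.64-fold lower in TKO-2i and the largest fall among the 8 genes.

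Prdm1 RNA came mainly from a pair of coding transcripts. Prdm1-201 had 1.21 ± 0.109 TPM in TKO-2i and 5.31 ± 0.970 TPM in TKO-serum. Prdm1-202, which lacks exon 2 of Prdm1-201 (79 bases, chr10:44456981-44457059) and has shorter first and last exons, had 0.311 ± 0.199 TPM in TKO-2i and 4.31 ± 0.585 TPM in TKO-serum. Both were lower in every TKO-2i library, and the shorter form made up 19.3% of the gene's TPM in TKO-2i against 42.5% in TKO-serum. Shares of transcripts are model estimates from reads that the forms share and were not tested.

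Prdm14, the other PR domain factor (ENSMUSG00000042414, minus strand of chr1:13113457-13127163), is required for PGC specification and, in ES cells, is known to repress the de novo methyltransferase genes and FGF signalling. It had 2513, 2520 and 2264 estimated counts in TKO-2i and 817, 1243 and 1108 in TKO-serum. In TPM this was 26.9, 30.7 and 25.3 in TKO-2i and 10.7, 12.8 and 12.8 in TKO-serum. The groups did not overlap, and the log2 fold change was 1.28 ± 0.06 (SE; adjusted p = 7.6e-07 in edgeR), or 2.42-fold higher in TKO-2i. Prdm14 and Prdm1 thus moved in opposite directions between the same libraries. By TPM, Prdm14 (27.6 ± 2.82) was far above Prdm1 in TKO-2i, whereas in TKO-serum the library values of Prdm14 (12.1 ± 1.21 TPM) and Prdm1 (10.1 ± 0.858 TPM) overlapped.

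Prdm14 has 1 annotated transcript, so no choice between forms enters its value. The primer pair with which the study measured Prdm14 by RT-qPCR is shown because it marks the stretch of this transcript that the PCR product covers. Both primers matched the transcript once, within the coding sequence, and enclose 107 bases. The forward primer lies in exon 4 (chr1:13124365-13124384) and the reverse primer in exon 5 (chr1:13122547-13122566), so that the product spans an intron.
Prdm14 forward primer: ggacaactctcggatgtggg
Prdm14 reverse primer: ggaaccgagcacagttgaca

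Tfap2c, an AP-2 family factor that acts with Prdm1 and Prdm14 in PGCs (ENSMUSG00000028640, plus strand of chr2:172549593-172558622), had 32.3, 31.1 and 28.1 TPM in TKO-2i and 23.1, 23.8 and 22.4 TPM in TKO-serum. All TKO-2i libraries were higher, by a smaller margin than for Prdm14. The log2 fold change was 0.51 ± 0.07 (SE; adjusted p = 0.000283 in edgeR). Most of the difference was assigned to a transcript that starts downstream of Tfap2c-201. Tfap2c-206, with a first exon at chr2:172550991-172551221, had 14.2 ± 1.26 TPM in TKO-2i and 7.77 ± 0.669 TPM in TKO-serum, with no overlap. Tfap2c-201, with a first exon upstream at chr2:172549593-172549882, had 13.3 ± 1.2 TPM in TKO-2i and 13.7 ± 0.483 TPM in TKO-serum, and its library values overlapped. These forms share no base of their first exons, but Tfap2c-202, which starts at 172550782, contains the whole first exon of Tfap2c-206, so the split of reads between that pair is uncertain. No test was made between transcripts.

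**Figure D2:**
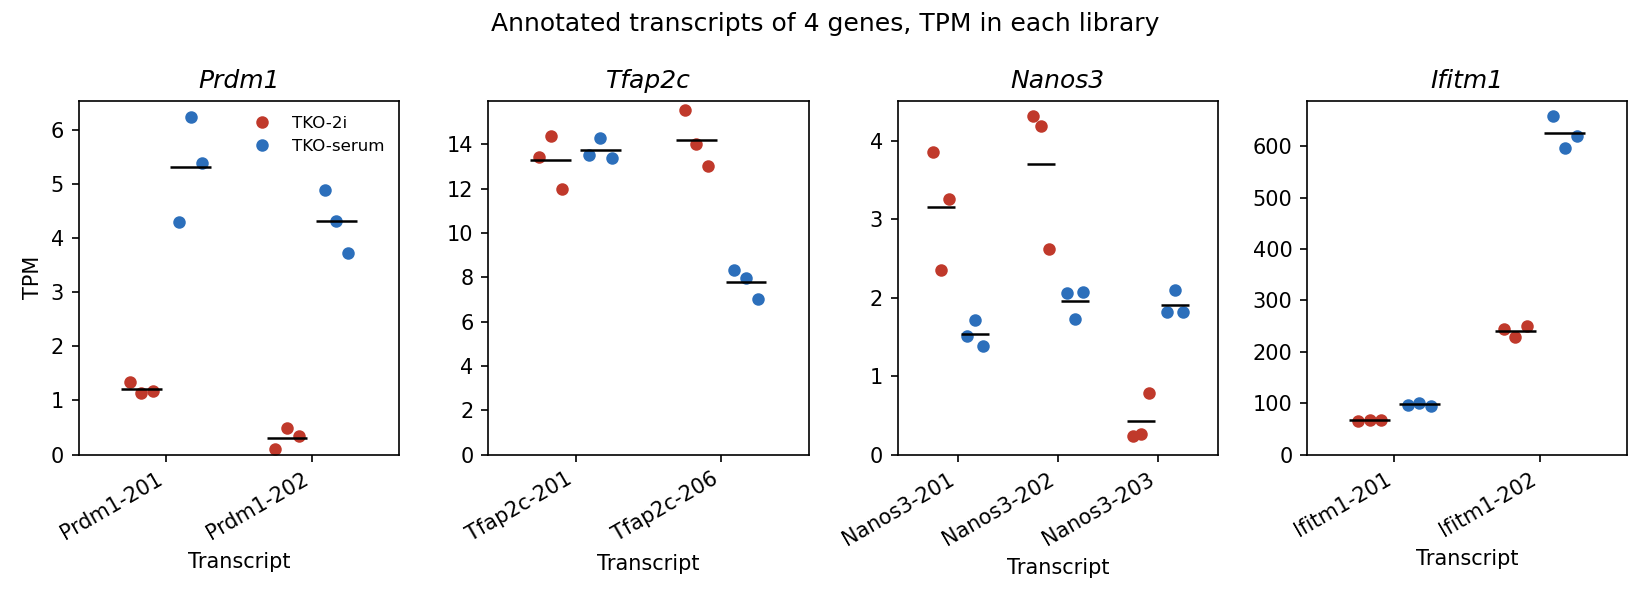
TPM of the annotated transcripts that held at least 10% of the TPM of Prdm1, Tfap2c, Nanos3 or Ifitm1 in either condition, in each TKO-2i library (red) and each TKO-serum library (blue), with group means as black lines. Tfap2c-206 is higher in TKO-2i (mean 14.2 against 7.77 TPM) while Tfap2c-201 overlaps, and Nanos3-203 is higher in TKO-serum (mean 1.91 against 0.428 TPM) while Nanos3-201 and Nanos3-202 are higher in TKO-2i.

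The RNA-binding proteins also split. Nanos3, a zinc-finger RNA-binding protein needed for PGC survival (ENSMUSG00000056155, minus strand of chr8:84173731-84185217), had 217, 135 and 151 estimated counts in TKO-2i and 89, 107 and 98 in TKO-serum. Its level was 8.41, 6.81 and 6.66 TPM in TKO-2i and 5.39, 5.55 and 5.28 TPM in TKO-serum. All TKO-2i values were higher, with the widest relative spread in TKO-2i of the 8 genes. The log2 fold change was 0.83 ± 0.18 (SE; adjusted p = 0.00359 in edgeR), while the ratio of mean TPM was smaller, at 0.43 on the log2 scale.

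The sum over Nanos3 transcripts joined forms that moved in opposite directions. The coding transcripts Nanos3-201 and Nanos3-202 together had 8.18, 6.54 and 5.88 TPM in TKO-2i and 3.57, 3.45 and 3.45 TPM in TKO-serum. Nanos3-203, a noncoding transcript that starts upstream at position 84185217 and joins the last Nanos3 exon, had 0.428 ± 0.308 TPM in TKO-2i and 1.91 ± 0.159 TPM in TKO-serum. It made up 5.87% of the gene's TPM in TKO-2i and 35.4% in TKO-serum. The TKO-2i share leaned on replicate 3, with 0.784 TPM against 0.234 and 0.268 TPM in replicates 1 and 2. Nanos3-203 rested on few reads, 3.18, 2.73 and 9.46 estimated counts in TKO-2i and 18.3, 24.8 and 20.5 in TKO-serum. The microRNA genes Mir181c (chr8:84178873-84178961) and Mir181d (chr8:84178716-84178787) lie in its intron on the same strand. Their mature products are not measured by this kind of library.

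Dnd1, an RNA-binding protein that acts with Nanos proteins and whose loss depletes germ cells in mice (ENSMUSG00000044595, minus strand of chr18:36763671-36766214), had 181, 151 and 158 estimated counts in TKO-2i and 473, 572 and 508 in TKO-serum. In TPM this was 3.41, 3.60 and 3.21 in TKO-2i and 11.6, 11.7 and 10.96 in TKO-serum. The conditions were far apart, and Dnd1 was 3.04-fold lower in TKO-2i (log2 fold change -1.61 ± 0.10, SE; adjusted p = 2.15e-06 in edgeR). The coding transcript Dnd1-201 held 85.4% of the gene's TPM in TKO-2i and 83.4% in TKO-serum, so its share moved little, and Dnd1-203, which retains an intron, held 13.6% in each. The end of Dnd1 overlaps the end of Wdr55 on the opposite strand, and 7.77% of the distinct 31-base words of Dnd1 transcripts also occur in Wdr55 or in the pseudogene Dnd1-ps. Wdr55 stood at 29.8 TPM in both conditions and Dnd1-ps at 0. Whether the quantification used the strand of the reads is not given in the sources used here.

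Kit, the receptor tyrosine kinase for stem cell factor that supports migrating PGCs (ENSMUSG00000005672, plus strand of chr5:75574916-75656722), rose most of the 8 genes. It had 13861, 14550 and 13640 estimated counts in TKO-2i and 2814, 3825 and 3411 in TKO-serum. Its level was 88.5, 102 and 90.3 TPM in TKO-2i and 22.9, 23.8 and 24.9 TPM in TKO-serum. The groups were widely separated, with little spread within each. The log2 fold change was 2.13 ± 0.05 (SE; adjusted p = 3.13e-08 in edgeR), or 4.38-fold higher in TKO-2i. Its ligand Kitl went the other way, from 2.46 ± 0.329 TPM in TKO-serum to 0.615 ± 0.176 TPM in TKO-2i (log2 fold change -1.87 ± 0.17, SE; adjusted p = 2.78e-05 in edgeR).

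Kit RNA is spliced into a pair of coding forms that differ by 12 bases at the end of exon 9, in the part that encodes the extracellular region next to the membrane. Kit-201 keeps these bases (chr5:75639147-75639158) and Kit-204 skips them. The junctions are shown because the forms differ in their coding sequence only there, with the extra bases in capitals and 12 bases on either side in lower case.
Kit-201: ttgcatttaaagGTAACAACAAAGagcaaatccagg
Kit-204: ttgcatttaaagagcaaatccagg
Kit-204 had 45.8 ± 3.51 TPM in TKO-2i and 11.3 ± 0.225 TPM in TKO-serum. Kit-201 had 24.5 ± 7.26 TPM in TKO-2i and 5.47 ± 0.645 TPM in TKO-serum. Both forms were higher in TKO-2i. Kit-204 made up 65.6% ± 5.71 of the TPM of the pair in TKO-2i and 67.5% ± 2.52 in TKO-serum, and the library values overlapped. The retained-intron transcripts Kit-208 (15.6% of the gene's TPM in TKO-2i and 15.7% in TKO-serum) and Kit-202 (8.69% and 13.2%) held most of the rest. Shares of the coding pair depend on the few reads over that junction and over the start of exon 1, where the forms also differ.

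The Ifitm genes encode small interferon-induced membrane proteins, and Ifitm3 (Fragilis) and Ifitm1 lie in a cluster on chromosome 7 and mark the epiblast cells from which PGCs come. Ifitm1 (ENSMUSG00000025491, plus strand of chr7:140967221-140969825) had 313, 301 and 322 TPM in TKO-2i and 761, 703 and 722 TPM in TKO-serum. It had the highest level of the 8 genes in every library. The groups did not overlap, and the log2 fold change was -1.05 ± 0.10 (SE; adjusted p = 3.86e-05 in edgeR), or 2.07-fold lower in TKO-2i. Ifitm1-202 held most of this change, with 241 ± 10.3 TPM in TKO-2i and 625 ± 32.1 TPM in TKO-serum. Ifitm1-201, whose first exon runs through the first intron of Ifitm1-202, had 66.9 ± 1.24 TPM in TKO-2i and 97.4 ± 2.40 TPM in TKO-serum.

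Ifitm3 (ENSMUSG00000025492, minus strand of chr7:141009586-141010770) differed less. It had 61.5, 48.0 and 58.3 CPM in TKO-2i and 66.1, 56.8 and 63.9 CPM in TKO-serum, and these ranges overlapped. Its TPM values were 130, 122 and 127 in TKO-2i and 152, 150 and 156 in TKO-serum, and did not overlap. The log2 fold change from counts was -0.15 ± 0.10 (SE) and was not called (adjusted p = 0.203 in edgeR). It passed the threshold with limma on log2(TPM + 1), at -0.27, and with the replicate number as a block, at -0.16, and its adjusted p ranged from 0.00615 to 0.551 over the alternatives (edgeR, limma and DESeq2), so its call depended on the scale and the model. Ifitm2, a relative in the same cluster, had 517 ± 14.6 TPM in TKO-2i and 579 ± 28.6 TPM in TKO-serum and was not called either (log2 fold change -0.04 ± 0.11, SE), and its sign changed without TKO-2i replicate 2 (0.066) and without TKO-serum replicate 1 (0.050). Ifitm6, the relative next to Ifitm3 (chr7:141015699-141017924), was called higher (1.68 ± 0.38, SE) at a far lower level, 1.05 ± 0.253 TPM in TKO-2i and 0.430 ± 0.138 TPM in TKO-serum. Related copies share sequence. Of the distinct 31-base words, 11.6% of those of Ifitm1 transcripts and 20.5% of those of Ifitm3 occur in transcripts of other genes. Among these are Ifitm2, Ifitm7 and several pseudogenes, and Ifitm1 and Ifitm3 share 35 words with each other. The division of shared reads among these copies is uncertain to that extent.

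The promoters of Ifitm1, Ifitm2 and Ifitm3, the most abundant genes of the cluster, are shown because genes of 1 family differed in their change. Promoter sequences came from RefSeq (GRCm38.p6; 250 bases before to 50 after the annotated start), and 5 of the 8 genes had an entry. They were searched on both strands for GAAA repeated after any 2 bases, the core of the interferon-stimulated response element, and matches are in capitals. Ifitm1 (plus strand of chr7:140967826-140968125) had no match. Its main transcript, Ifitm1-202, starts inside that window, at chr7:140968028, so fewer than 250 bases before that start were searched. Ifitm2 (minus strand of chr7:140955912-140956211) had 1 match, and Ifitm3 (minus strand of chr7:141010695-141010994) had 2. The motif occurs in 3.44% of 32851 promoters. A match is a description of letters and no measure of binding, and its part in the changes of these genes was not tested.
Ifitm1: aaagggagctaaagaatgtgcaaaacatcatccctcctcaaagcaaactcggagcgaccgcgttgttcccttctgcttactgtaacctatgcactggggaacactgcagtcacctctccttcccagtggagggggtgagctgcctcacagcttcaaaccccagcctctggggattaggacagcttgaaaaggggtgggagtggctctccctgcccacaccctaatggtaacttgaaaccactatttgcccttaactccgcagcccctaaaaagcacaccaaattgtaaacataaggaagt
Ifitm2: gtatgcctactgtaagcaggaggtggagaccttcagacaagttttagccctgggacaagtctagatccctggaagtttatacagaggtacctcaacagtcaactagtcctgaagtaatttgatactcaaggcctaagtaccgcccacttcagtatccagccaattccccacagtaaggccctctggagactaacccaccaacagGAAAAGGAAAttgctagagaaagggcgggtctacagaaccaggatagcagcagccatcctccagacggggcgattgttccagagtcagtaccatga
Ifitm3: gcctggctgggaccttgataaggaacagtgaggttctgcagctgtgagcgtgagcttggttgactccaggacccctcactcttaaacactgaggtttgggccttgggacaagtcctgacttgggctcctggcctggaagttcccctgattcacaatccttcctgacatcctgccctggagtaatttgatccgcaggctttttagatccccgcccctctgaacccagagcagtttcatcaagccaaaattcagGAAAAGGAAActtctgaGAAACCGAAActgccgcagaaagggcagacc

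The gene with the largest fall and the gene with the largest rise had promoters with similar numbers of CG dinucleotides, the sites that DNA methyltransferases modify and that are the reason to show both. The promoter of Prdm1 (minus strand of chr10:44458699-44458998) and that of Kit (plus strand of chr5:75574737-75575036) each held 20, the upper quartile of all promoters, whose median was 7. The table's other Kit promoter (chr5:75574741-75575040) held 21. Nanos3 held 3, and Ifitm1 and Ifitm3 held 5 each. The CG dinucleotides are in capitals. Both groups carry the triple knockout, and no link between CG number and change was tested.
Prdm1: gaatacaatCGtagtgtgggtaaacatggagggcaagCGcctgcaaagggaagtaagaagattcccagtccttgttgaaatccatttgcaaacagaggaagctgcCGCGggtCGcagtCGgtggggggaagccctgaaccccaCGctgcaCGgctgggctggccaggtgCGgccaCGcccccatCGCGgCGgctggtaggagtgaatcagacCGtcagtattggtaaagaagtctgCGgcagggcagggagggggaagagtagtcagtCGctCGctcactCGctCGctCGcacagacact
Kit: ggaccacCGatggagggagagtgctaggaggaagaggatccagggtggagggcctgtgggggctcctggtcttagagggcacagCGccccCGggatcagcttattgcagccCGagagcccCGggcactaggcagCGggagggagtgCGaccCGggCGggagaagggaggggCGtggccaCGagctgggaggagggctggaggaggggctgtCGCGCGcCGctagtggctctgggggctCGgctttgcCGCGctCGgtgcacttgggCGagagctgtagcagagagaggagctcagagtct

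The signals that induce PGCs were represented by 15 genes for BMP and Wnt ligands, BMP receptors, Smads and Kitl. Of these, 6 were called higher and 3 lower in TKO-2i. Beside the counts of this and every list below stand the shares of all genes tested, 31.9% higher and 30.6% lower. The median log2 fold change was 0.15, or 0.063 without TKO-2i replicate 2. It was -0.03 with limma on log2(TPM + 1), where the median of all genes tested was -0.06. Among the ligands, Bmp4 was higher (27.4 ± 3.04 TPM in TKO-2i and 18.8 ± 1.32 TPM in TKO-serum), as was Wnt3a (log2 fold change 1.59 ± 0.19, SE), while Bmp8b was lower (-2.90 ± 0.25, SE). Among the receptors, the type I receptor Acvr1 was higher (1.08 ± 0.09, SE) and Bmpr1b fell most of the list (-4.49 ± 0.21, SE), from 0.907 ± 0.0111 TPM in TKO-serum to 0.0502 ± 0.0166 TPM in TKO-2i. Among the Smads, which carry the BMP signal to the nucleus, Smad9 rose most (1.65 ± 0.12, SE), and Smad1 was also higher (0.53 ± 0.06, SE). Smad4, the shared partner of the receptor-regulated Smads, had the highest level of the list (38.4 ± 2.38 TPM in TKO-2i and 36.0 ± 2.43 TPM in TKO-serum), and its small rise (0.20 ± 0.05, SE) was not called with limma on log2(TPM + 1).

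Of 11 pluripotency genes that PGCs keep or regain, 5 were called higher and 5 lower in TKO-2i, with a median log2 fold change of -0.18, or -0.084 without TKO-2i replicate 2 and -0.30 with limma on log2(TPM + 1). Alpl, the alkaline phosphatase used to stain PGCs, rose most (log2 fold change 1.63 ± 0.06, SE), to 163 ± 10.6 TPM from 56.4 ± 2.06 TPM. Nanog (0.60 ± 0.06, SE) and Dppa3 (0.48 ± 0.10, SE), which is also called Stella and marks early PGCs, were higher too. Lin28a, an inhibitor of let-7 processing that acts upstream of Prdm1 in PGCs, fell most (-1.66 ± 0.08, SE). Utf1 (-1.33 ± 0.08, SE), Sox2 (-0.41 ± 0.05, SE) and Zfp42 (-0.40 ± 0.06, SE) were lower. Nanog and Dppa3 lie on chromosome 6, whose 866 genes tested had a median log2 fold change of 0.41. Chromosome 11 was also shifted, with a median of 0.26, and none of the 8 genes lies on either. The chromosomes of the 8 genes had medians between -0.06 and 0.01.

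Known protein partners had small fold changes. Of 13 partner genes, 3 were called higher and 3 lower in TKO-2i. The median log2 fold change was 0.04, or 0.016 without TKO-2i replicate 2. With limma on log2(TPM + 1) it was -0.09, and 0 of them were called higher. In that limma fit the median of all genes tested was -0.06, and 42.3% of all calls were higher, against 51.1% in edgeR. Cbfa2t2, the corepressor that Prdm14 binds, had 30.6 ± 3.83 TPM in TKO-2i and 36.8 ± 3.03 TPM in TKO-serum and was not called. Prmt5, the arginine methyltransferase that binds Prdm1, had 109 ± 2.22 and 109 ± 4.45 TPM and was not called. Its cofactor Wdr77 had the highest level of the list in TKO-serum (165 ± 1.46 TPM) and the largest fall (log2 fold change -0.25 ± 0.06, SE). In TKO-2i the mean of Wdr77 came after that of Cnot1 through replicate 2 alone (139 against 174 TPM), and their library values overlapped. Cnot6l, a deadenylase of the CCR4-NOT complex that Nanos and Dnd1 proteins recruit, had the largest rise (0.41 ± 0.12, SE). That call was lost without TKO-serum replicate 3, where the value was 0.37.

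Germ cell genes that come on after specification were mostly lower in TKO-2i. Of 16 such genes tested, 12 were called lower and 1 higher, with a median log2 fold change of -1.54. Mael, a piRNA pathway gene, fell most (-3.64 ± 0.09, SE), from 12.2 ± 0.248 TPM in TKO-serum to 0.924 ± 0.0278 TPM in TKO-2i. Ddx4 (-2.13 ± 0.11, SE), the Vasa helicase, and Piwil2 (-1.95 ± 0.07, SE) were lower as well. Dazl, an RNA-binding protein of germ cells, went the other way (1.71 ± 0.06, SE), with 165 ± 13.0 TPM in TKO-2i and 58.5 ± 1.63 TPM in TKO-serum, and had the highest level of the list. Dazl, like Prdm14 and Kit, was therefore higher in 2i while most genes of the list, like Prdm1 and Dnd1, were higher in serum.

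Of 8 genes known to be lowered by or together with Prdm14, 5 were called lower and 1 higher in TKO-2i, with a median log2 fold change of -0.71. Fgfr2 fell most (-4.67 ± 0.13, SE), followed by Dnmt3l (-3.31 ± 0.07, SE), the cofactor of the de novo methyltransferases, which went from 499 ± 10.96 TPM in TKO-serum to 46.9 ± 2.01 TPM in TKO-2i. Dnmt3a (-2.04 ± 0.06, SE) and Dnmt3b (-1.11 ± 0.05, SE) were also lower. Uhrf1, which recruits Dnmt1 to replicating DNA, was higher (0.97 ± 0.05, SE), and Fgfr1 and Lefty2 were not called. Dnmt1 itself rose slightly (0.24 ± 0.05, SE), a call lost with limma on log2(TPM + 1).

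Of 8 mesoderm and posterior genes that nascent PGCs silence, 6 were tested, 3 were called higher and 1 lower in TKO-2i, with a median log2 fold change of 1.00, or 0.54 with limma on log2(TPM + 1) and 1.76 with at least 10 counts in every sample. T (Brachyury), a Wnt target that also takes part in PGC induction, rose most (5.58 ± 0.32, SE), from 0.271 ± 0.0903 TPM in TKO-serum to 11.8 ± 3.39 TPM in TKO-2i. Eomes was higher (2.81 ± 0.08, SE), and Fgf8 was lower (-2.86 ± 0.28, SE).

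Relatives of the 8 genes moved in both directions. Of 28 genes of the same families, 22 were tested, 6 were called higher and 8 lower in TKO-2i. Over all genes tested these shares were 31.9% higher and 30.6% lower. The median log2 fold change was -0.15, or -0.25 with limma on log2(TPM + 0.1). Among PR domain genes, Prdm6 rose most (2.92 ± 0.45, SE) at a level under that of any of the 8 genes, 0.295 ± 0.0641 TPM in TKO-2i. Its fold rested on 9 estimated counts in all TKO-serum libraries, and the log2 value was 3.60 without TKO-serum replicate 1. Tfap2a rose more on the log2 scale than Tfap2c (2.02 ± 0.12, SE) and reached 6.85 ± 0.633 TPM in TKO-2i. Among the receptor kinases related to Kit, Pdgfrb was higher (1.62 ± 0.14, SE), whereas Pdgfra was lower (-2.50 ± 0.15, SE), both far below Kit in TPM. Csf1r fell most of the relatives but rested on 2 estimated counts in all TKO-2i libraries and 42 in all TKO-serum libraries, too few for a fold change, and was not called with limma on log2(TPM + 1). Ifitm2 had the highest level among the relatives.

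**Figure D3:**
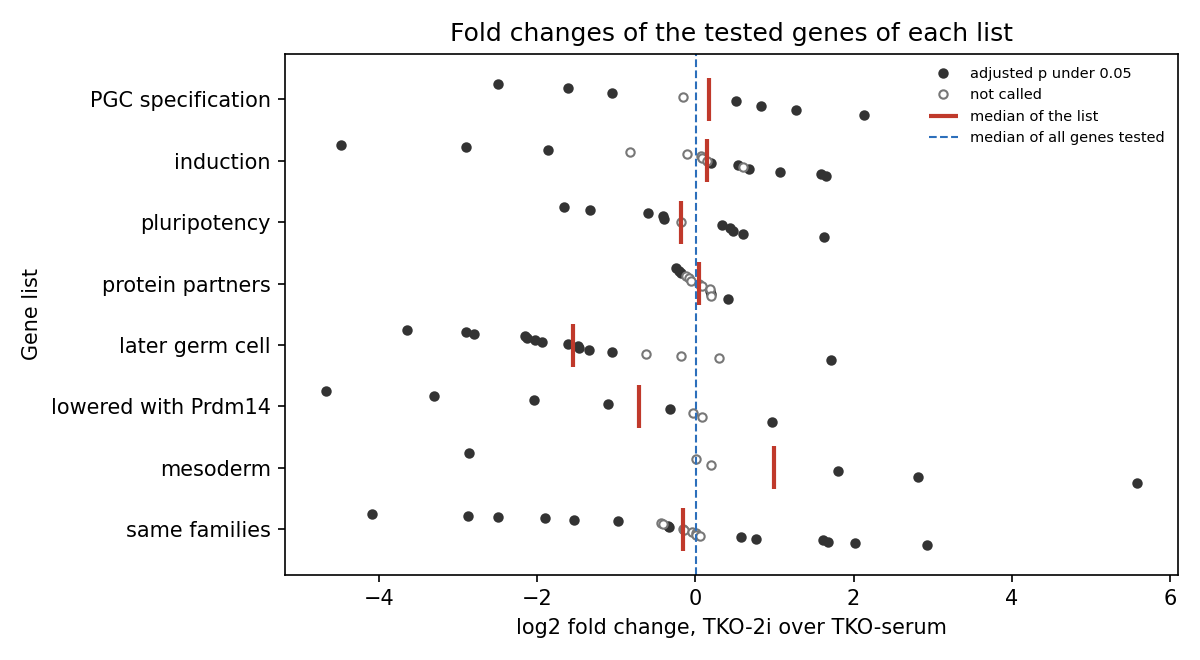
Log2 fold change (TKO-2i over TKO-serum) of each tested gene of the 8 PGC specification genes and of 7 related lists. Filled points passed an adjusted p-value of 0.05, open points did not, red bars are list medians (0.18 for PGC specification, -1.54 for later germ cell genes) and the dashed line is the median of all genes tested (0.01).

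Markers of other cell types and states also moved between the media, and their part in the changes of the 8 genes was not tested. All 4 epiblast markers were lower in TKO-2i, and their summed level was 11.3, 14.4 and 12.9 TPM in TKO-2i and 57.2, 62.0 and 59.5 TPM in TKO-serum. Dnmt3b, an inactivated gene, is among them and supplied most of this sum in TKO-2i (8.24 ± 1.43 TPM). Otx2 was the most abundant in TKO-serum (27.3 ± 1.32 TPM, and 3.15 ± 0.132 TPM in TKO-2i), and Fgf5 fell most, with 5.08 estimated counts in all TKO-2i libraries and 139 in all TKO-serum libraries. All 5 markers of the 2-cell-like state were lower, with sums of 0.362, 0.322 and 0.139 TPM in TKO-2i and 19.1, 21.01 and 20.3 TPM in TKO-serum, with Zscan4c the most abundant in TKO-serum (10.8 ± 0.657 TPM, and 0.043 ± 0.0373 TPM in TKO-2i), a gene whose near-identical copies make its own value uncertain. Of 6 primitive endoderm markers, 5 were lower, with sums of 4.56, 5.50 and 4.32 TPM in TKO-2i and 9.24, 10.6 and 11.6 TPM in TKO-serum, with Gata4 the most abundant and the largest fall in Sox7 (-4.05 ± 0.22, SE). These sums were lower in TKO-2i, where 30.6% of all genes tested, among them Prdm1, Dnd1 and Ifitm1, were called lower.

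Haematopoietic and mast cell markers, which matter since Kit also marks those lineages, stood at sums of 4.0, 3.75 and 2.55 TPM in TKO-2i and 7.50, 6.31 and 8.45 TPM in TKO-serum. Of 5 such genes, 3 were tested and all 3 were lower in TKO-2i, with Gata2 the most abundant and the largest fall in Tal1 (-2.08 ± 0.19, SE). Cpa3 and Ptprc were not tested. Cpa3 was at 0 in every library, and Ptprc had 10 estimated counts in all TKO-2i libraries and 9 in all TKO-serum libraries. Any part of such cells in the level of Kit was not tested. Of 6 trophoblast markers, 1 was called higher and 3 lower, with sums of 4.39, 3.35 and 4.97 TPM in TKO-2i and 3.81, 3.76 and 3.18 TPM in TKO-serum. Cdx2 had the highest mean in TKO-2i and rose (4.28 ± 0.35, SE) to 3.42 ± 0.798 TPM, while Gata3 fell most (-3.33 ± 0.26, SE). Of 7 fibroblast markers, 3 were tested and 2 were called, both lower, with sums of 4.12, 4.81 and 4.55 TPM in TKO-2i and 5.83, 6.48 and 5.94 TPM in TKO-serum. Thy1 was the most abundant, Col1a2 fell most (-1.55 ± 0.25, SE), and Col3a1 had 1 and 10 estimated counts in all TKO-2i and all TKO-serum libraries. Of the 5 ES cell markers, 2 were called higher and 2 lower. Their sums were 2526, 2499 and 2367 TPM in TKO-2i and 2773, 2847 and 2789 TPM in TKO-serum. Pou5f1 led these markers and was not called (log2 fold change -0.18 ± 0.08, SE), but passed the threshold with limma on log2(TPM + 1), at -0.30. With single libraries left out, its value lay between -0.26 and -0.084.

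The genes most like each of the 8 in pattern were sought among 12865 protein-coding genes with a mean of at least 1 CPM, by the root mean square difference of log2(CPM + 0.1) centred on its mean over the 6 libraries. Closest to Prdm1 were Gm8206 (difference 0.0479), Pak6 and Neb. Their log2 fold changes were -2.90, -2.48 and -2.69, beside -2.50 for Prdm1, so the closest gene was not the nearest in fold. Prdm14 was closest to Mpzl3 (0.0363), Eef2k and Lrig1, and Tfap2c to H3f3b (0.0269), Ndufc2 and Mogs. Nanos3 was closest to Cavin3 (0.0617), Snrnp27 and Cdpf1, and Dnd1 to Bcar1 (0.0277), Pdzd4 and Rnase4. For Kit these were Prickle2 (0.0346), Aff1 and AI464131, for Ifitm1 Tmsb4x (0.0523), Ccdc28a and Bspry, and for Ifitm3 Znhit1 (0.0173), Asna1 and Psma7. None of the 8 was counted as a candidate, and with 6 libraries in 2 groups such likeness mostly records a similar size of change between the media.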

How the data were processed

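For each library the authors deposited estimated counts of reads per transcript, which are mostly not whole numbers and are not normalized, in columns such as salmon writes. The authors' TPM values, deposited beside them, are scaled for effective transcript length to a fixed sum. The quantifier, its version and whether it used read strand are not given in the sources used here. The labels name the build mm10.

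Of 136288 transcripts, 136100 were matched to GENCODE M21 (GRCm38) and summed to 53390 genes. The estimated counts were rounded, filtered with filterByExpr, which left 18177 genes, and scaled with TMM factors (edgeR 4.0.16 in R 4.3.3). The condition was the only factor in glmQLFit, and glmQLFTest gave two-sided p-values for TKO-2i over TKO-serum, with Benjamini-Hochberg adjustment over all genes tested. To obtain an SE, the size of the log2 fold change was divided by √F. CPM values use TMM library sizes. Alternatives used DESeq2 1.42.0, its size factors, other filters, length-scaled TPM turned into counts, a replicate block, limma 3.58.1 for TPM on a log2 scale with 1 or 0.1 added, and each library left out. Scripts used Python 3.11.

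The 8 genes and the lists were chosen with earlier results of these data known. Named genes are the 8, the inactivated genes and, in each list, the gene with the highest mean TPM and the called genes with the largest rise and fall; other genes named belong to the lists and were chosen after their values were seen. Transcripts are named from 10% of a gene's TPM. Gcna matched no symbol. The 31-base words were compared over all annotated transcripts. Depending on the library, 3 counts amount to 0.0578 to 0.0784 CPM before TMM scaling, and such floors cover counting error only. The 2 most abundant RNAs, Mir6236 and Gm23935, took 9.13% to 13.0% of TPM, which shifts all other TPM values of a library. Replicates of 1 condition differed by more than counting noise (chi-square per gene of at least 4.88). Replicate 2 of TKO-2i stood furthest apart, at 47.5 against replicate 1 and 28.8 against replicate 3, while replicates 1 and 3 gave 7.49. Without that library 12568 genes were called, in place of 11361.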

Additional observations from a re-analysis of the deposited data

How the results depend on the processing

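Prdm1, Prdm14, Tfap2c, Nanos3, Dnd1, Kit and Ifitm1 kept their direction and their call under all 14 alternatives. The log2 fold change ranged from -2.58 to -2.09 for Prdm1, 1.13 to 1.32 for Prdm14, 0.38 to 0.56 for Tfap2c, 0.37 to 0.98 for Nanos3, -1.72 to -1.49 for Dnd1, 1.93 to 2.14 for Kit and -1.22 to -0.95 for Ifitm1. Ifitm3 ranged from -0.27 to -0.05, with adjusted p-values from 0.00615 to 0.551. It was called lower with limma on log2(TPM + 1) (-0.27) and on log2(TPM + 0.1) (-0.27), so that 4 of the 8 genes were lower there, and in no count model without a block; the cause was not tested. Single libraries left out gave between -0.14 and 0.07 for Ifitm2, with a positive sign without TKO-2i replicate 2 (0.066) or TKO-serum replicate 1 (0.050). The genes called numbered between 9517 and 12568 of all genes.

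Of the partner genes, 0 were called higher with limma on log2(TPM + 1) or on log2(TPM + 0.1), and leaving out single libraries gave 1 to 5 higher and 2 to 5 lower. Later germ cell genes called higher numbered 2 with counts from length-scaled TPM. No mesoderm gene was called lower (0) with at least 10 counts in every sample, since Fgf8 was then not tested. The cause of the other shifts was not tested.

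A block for the replicate number gave 12539 genes called in place of 11361. With it, Ifitm3 was called lower (-0.16, adjusted p = 0.0109), and 5 partner genes were called higher. Deviations of same-numbered libraries from their group means correlated across genes at 0.242, 0.329 and 0.014 for replicates 1, 2 and 3. TKO-2i replicates 1 and 2 correlated best with the library of the same number, and TKO-2i replicate 3 with TKO-serum replicate 1 (0.123). Deviations within a group depend on each other, so these values do not settle whether the numbers pair the libraries. The block was kept as an alternative. Nanos3, Dnd1 and Prdm1 in TKO-2i rest on 135 to 247 estimated counts per library, which limits what can be said of their transcripts.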
